A study of Arabidopsis thaliana with 12 samples.

Results

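The effect of the ktn1-20 mutation on the microRNAs (miRNAs) bound by ARGONAUTE1 (AGO1) in the root endodermis of Arabidopsis thaliana was examined in 4 of the 12 libraries of the series. They were chosen by title: 2 ktn1 libraries and 2 wild-type (WT) libraries of the line that expresses GFP-tagged AGO1 from the EN7 promoter. All 4 come from the Col-0 background and carry the EN7::GFP-AGO1 transgene, which drives the fusion in the endodermis, and the ktn1 libraries carry ktn1-20 in addition. Roots were collected at 9 days of age, the fusion was pulled down with GFP-Trap, and small RNA was sequenced. The restriction to the endodermis rests on the promoter alone, because whole roots were ground and a table of mature miRNAs holds no mRNA marker of a cell layer. The KTN1 transcript is likewise not measured, which leaves the genotypes resting on the labels, and no control immunoprecipitation was analysed here. Values are relative to the reads of each pull-down, so fewer cells with the fusion and less miRNA per cell cannot be told apart. Nothing in the labels says whether replicates r1 and r2 are separate plantings, so p-values measure only the spread between libraries. For the limma fits these are 8 libraries, of which 4 come from the ACL5 line, described last.

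Katanin, whose catalytic subunit is the product of KTN1 (AT1G80350), severs microtubules. Plant miRNAs leave their hairpin precursor as a duplex of a guide strand, which AGO1 keeps, and a passenger strand, which is normally discarded. AGO1 then cleaves or represses mRNAs that pair with the guide. In roots, miR165 and miR166 are produced in the endodermis and move into the stele, where they limit the HD-ZIP III transcription factors that pattern the xylem. The comparison asks which miRNAs AGO1 holds in the producing layer when katanin is lost.

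Each library gives the abundance of 180 entries in RPM, the reads of an entry per 1000000 reads of the library's denominator. An entry is a mature miRNA, or several names that share 1 mature sequence, and the 180 entries hold 233 names in 107 families by miRNA number, with miR165 and miR166 taken as 1 family. All values above 0 in a library were whole multiples of the lowest one, which was taken as 1 read. On that reading the RPM denominators were 13004041 and 10191562 reads in ktn1, against 7860329 and 6941793 reads in WT. AGO1-bound miRNA reads ran from 2412931 to 7733775 per library. A value under 3 reads cannot be told from 0, which is 0.231 and 0.294 RPM in ktn1 and 0.382 and 0.432 RPM in WT.

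WT r1 stood apart from the other libraries. On the log2(RPM + 1) scale it lay more than 4-fold above all other 3 libraries for 9 of 86 tested entries and more than 4-fold below them for 5, whereas ktn1 r1 and WT r2 did so for 0 entries and ktn1 r2 for 1. The 2 WT libraries differed by more than 4-fold at 18 of 86 entries and the 2 ktn1 libraries at 6. Replicates of ktn1 differed by a median of 0.59 on the log2 scale, in absolute terms, and those of WT by 0.93. With the sign kept, the median of r1 minus r2 was 0.53 in ktn1 and 0.15 in WT. The r2 library of ktn1 thus tended to be the lower of its pair. Levels are therefore given per library, and for the main entries whose change rests on WT r1 the change without it is given too.

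Listed miRNAs took a larger share of the AGO1-bound reads in ktn1 than in WT, and the difference lay in miR165/miR166. All listed miRNAs together made up 59.5% and 53.6% of the denominator in ktn1, against 30.7% and 37.2% in WT. Both ktn1 libraries lay above both WT libraries, but the exact two-sided permutation p of 0.333 is the smallest that 2 libraries against 2 can give. The miR165/miR166 family alone made up 34.4% and 34.7% of the denominator in ktn1, against 12.4% and 12.2% in WT. With these entries left out of the total, the remaining miRNAs made up 25.1% and 18.8% in ktn1, against 18.3% and 25.1% in WT. The groups then overlapped, with means of 21.9% ± 4.39 in ktn1 and 21.7% ± 4.80 in WT (SD, n = 2 each; exact permutation p = 1). The log2 ratio of this remainder, 0.017, changed sign when ktn1 r1 (-0.20) or WT r1 (-0.19) was left out.

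**Figure D1:**
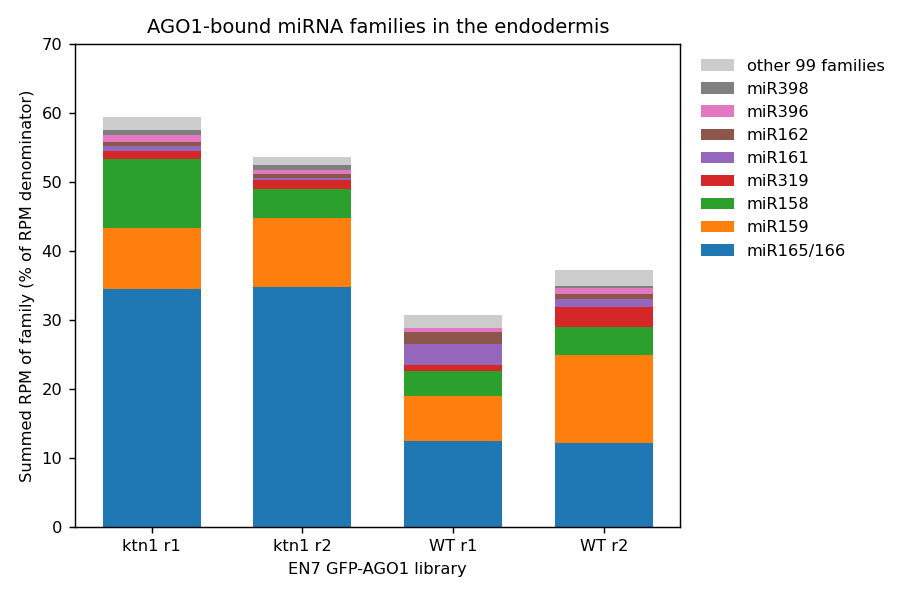
Stacked bars give the summed RPM of each miRNA family as a percentage of the RPM denominator, for the 2 ktn1 and 2 WT EN7 libraries; grey is the sum of the other 99 families. The blue miR165/miR166 segment is 34.4% and 34.7% high in ktn1 and 12.4% and 12.2% in WT, while the rest of each bar overlaps between genotypes.

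The endodermal repertoire was narrow in every library. The 5 families with the most reads held 93.3% and 95.2% of listed miRNA reads in ktn1, against 89.3% and 88.7% in WT. It took 4 and 3 families to reach 90% of listed reads in ktn1, against 6 and 6 in WT. Without miR165/miR166 these numbers were 7 and 6 in ktn1, against 7 and 7 in WT, so the difference between genotypes was no longer a separation of the groups. At the other end, the median entry stood at 3.61 and 1.96 RPM in ktn1, against 3.94 and 3.03 RPM in WT.

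Among the leading families next to miR165/miR166 were several regulators of transcription factors. miR159, which targets GAMYB-like genes, held 88305 and 100862 RPM in ktn1, against 65082 and 127662 RPM in WT. Of the miRNA total outside miR165/miR166, it took 35.2% and 53.5% in ktn1, against 35.6% and 50.9% in WT. The related miR319, which targets TCP genes, held 11816 and 12766 RPM in ktn1, against 8796 and 29464 RPM in WT. For both families the ktn1 values lay between the 2 WT values. miR396, which targets GROWTH-REGULATING FACTOR genes, held 10309 and 5512 RPM in ktn1, against 5456 and 8642 RPM in WT. miR846, which targets jacalin lectin genes, held 4686 and 2445 RPM in ktn1, against 3024 and 6882 RPM in WT, and overlapped too.

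miR158, a family of Brassicaceae, was the third by mean level. It held 100058 and 41263 RPM in ktn1, against 36725 and 40252 RPM in WT. Both ktn1 values were above both WT values, but ktn1 r2 exceeded WT r2 only narrowly. Its leading entry, miR158a-3p, held 99414 and 41016 RPM in ktn1, against 36362 and 39998 RPM in WT, and did not pass the test described next. miR161, which targets pentatricopeptide repeat (PPR) genes, held 7977 and 3489 RPM in ktn1, against 30227 and 11393 RPM in WT. miR162, which targets the miRNA-processing enzyme DCL1, held 6092 and 5203 RPM in ktn1, against 18162 and 6711 RPM in WT. In both families the ktn1 values were lower than both WT values and WT r1 was the highest library. Of the total outside miR165/miR166, miR161 took 3.18% and 1.85% in ktn1, against 16.5% and 4.54% in WT. For miR162 the separation was lost on that scale, with 2.43% and 2.76% in ktn1, against 9.93% and 2.68% in WT.

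Of the 180 entries, 86 reached 10 RPM in at least 2 of the 8 AGO1 libraries that were fitted together and were tested. The other 94 were not. Of the 8 libraries, 4 came from the ACL5 line, described last. Among the 86, 69 had 10 RPM in 2 or more EN7 libraries. The other 17 had it in 1 or none and needed the ACL5 libraries to be tested. Between ktn1 and WT, 6 of 86 entries (6.98%) passed an adjusted p of 0.05 in limma on log2(RPM + 1), with 3 higher (3.49%) and 3 lower (3.49%) in ktn1. The 3 lower ones had 10 RPM in both WT libraries and in no ktn1 library, so within EN7 they entered the test only through the genotype where they are high. Of the 6, 5 belong to miR165/miR166, which has 5 entries in all, and the sixth is miR3932b-5p. The same 6 passed when each library was scaled to an equal sum outside miR165/miR166. They also passed with WT r1 left out. With WT r2 left out, so that WT r1 alone stood for the wild type, 19 entries passed, these 6 among them. At an unadjusted p under 0.05, 15 entries passed, with 6 higher and 9 lower in ktn1.

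Among families, 2 of 55 (3.64%) passed as higher in ktn1 and none as lower (limma), with 3 lower at an unadjusted p under 0.05. The 2 that passed were miR165/miR166 and miR3932. With the total scaled outside miR165/miR166, 1 of 55 families (1.82%) passed, which was miR165/miR166. The median log2 change of all 86 tested entries was -0.47, and -0.45 over the 81 outside miR165/miR166. Scaling outside miR165/miR166 left it at -0.49. Most tested entries thus had a lower level in ktn1 on these 2 scales, with 58 negative and 28 positive changes on each. Other scalings moved the changes. For miR162a-3p the change was -0.98 as deposited, -0.26 with equal medians of entries and -1.72 with equal sums of all listed entries. For miR161.1 it was -1.82, -1.10 and -2.56. The prevalence of lower entries is therefore stated for the 2 scales only.

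Counting entries without a test, both ktn1 libraries lay above both WT libraries for 19 of 180 entries (10.6%) and below them for 43 (23.9%). With libraries scaled outside miR165/miR166 these counts were 22 (12.2%) and 43 (23.9%). Among the 86 tested entries, 10 (11.6%) lay above and 30 (34.9%) below, or 40 in all (46.5%); scaled, 12 (14.0%) lay above and 30 (34.9%) below. A gap of at least 2-fold between the nearest ktn1 and WT libraries, with values under the floor of 3 reads set to it, remained for 5 entries above and 8 below. The 4 tested ones above were both miR165/miR166 guide strands, miR827 and miR3932b-5p. The 7 tested ones below were the 3 miR165/miR166 passenger strands, miR396a-3p, miR5650, miR156a-5p and miR156g. Of these, miR156g was under 10 RPM in all 4 EN7 libraries.

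**Figure D2:**
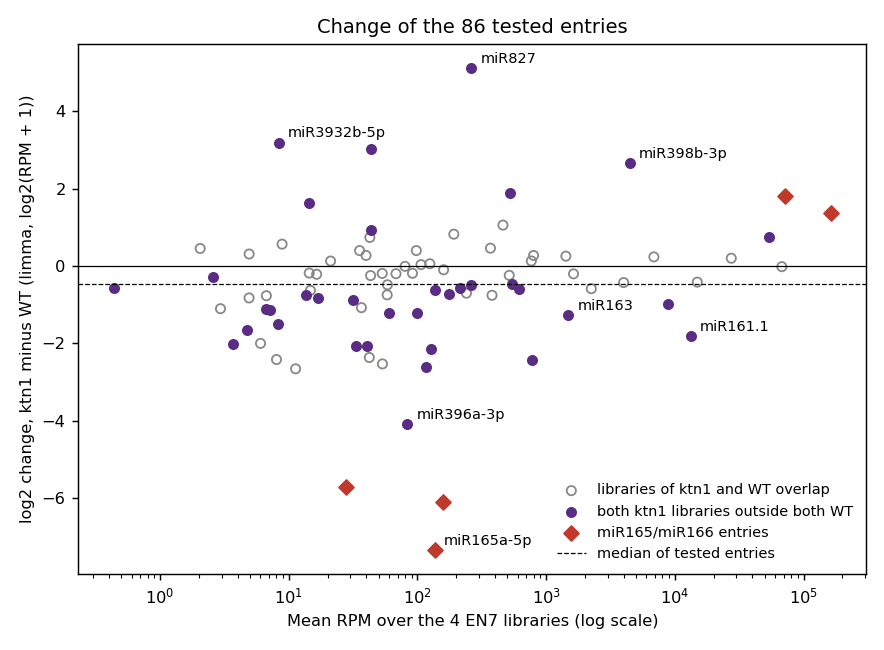
Each point is 1 of the 86 tested entries, by its mean RPM over the 4 EN7 libraries (log scale) and its log2 change, ktn1 minus WT. The miR165/miR166 entries (red diamonds) split into guide strands at the far right with changes of 1.38 and 1.81 and passenger strands with changes of -5.72 to -7.34; the dashed line marks the median of -0.47.

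Both guide strands of the miR165/miR166 family rose, and replicates lay close together. The entry shared by miR166a-3p, miR166b-3p, miR166c, miR166d, miR166e-3p, miR166f and miR166g held 233082 and 235923 RPM in ktn1, against 91683 and 88962 RPM in WT (log2 change 1.38, SE 0.15, adjusted p = 0.0015, limma). The entry shared by miR165a-3p and miR165b held 111094 and 111570 RPM in ktn1, against 31674 and 31980 RPM in WT (log2 change 1.81, SE 0.21, adjusted p = 0.0015). The fitted change was larger for miR165 than for miR166: there were 2.10 and 2.11 reads of the miR166 guide per read of the miR165 guide in ktn1, against 2.89 and 2.78 in WT. This ratio does not depend on the total, and its groups did not overlap; it was not tested. Because the guide of miR166 comes from 7 precursor genes (AT2G46685, AT3G61897, AT5G08712, AT5G08717, AT5G41905, AT5G43603 and AT5G63715) and that of miR165 from AT1G01183 and AT4G00885, the files cannot say which gene gave the reads.

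The 3 passenger strands of the same family fell. miR165a-5p held 0.692 and 0.687 RPM in ktn1, which is 9 and 7 reads, against 262 and 285 RPM in WT (log2 change -7.34, SE 0.98, adjusted p = 0.0026, limma). miR166a-5p, shared with miR166b-5p, held 3.54 and 3.63 RPM in ktn1, against 323 and 307 RPM in WT (log2 change -6.11, SE 0.70, adjusted p = 0.0015). miR166e-5p held 2 and 0 reads in ktn1, against 432 and 390 reads in WT (55.0 and 56.2 RPM). Its log2 change of -5.72 (SE 0.67, adjusted p = 0.0015) depends on the added pseudocount, because ktn1 is at or under the floor. Together the passengers gave 57 and 44 reads in ktn1, against 5026 and 4498 reads in WT, at a larger denominator in ktn1. WT r1, which stood apart elsewhere, was close to WT r2 in all 5 entries.

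These 5 entries depended on the scale as follows. With libraries scaled outside miR165/miR166, the log2 changes were 1.36 and 1.79 for the miR166 and miR165 guides (adjusted p = 0.027 and 0.015, limma) and -5.90 to -7.45 for the passengers. With libraries scaled to an equal sum of all listed entries, of which the guides are themselves a large part, the guides no longer passed (0.64 with adjusted p = 0.12 for miR166, and 1.07 with adjusted p = 0.052 for miR165). Without a mean-variance trend in limma the miR166 guide had an adjusted p of 0.12 at the same change. The passengers passed under all 13 alternatives.

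miR3932b-5p (precursor AT4G06130) was the only tested entry outside miR165/miR166 that passed, and it was higher in ktn1. It held 17.8 and 13.4 RPM in ktn1, against 2.29 and 0 RPM in WT (log2 change 3.18, SE 0.68, adjusted p = 0.033, limma). With the 4 EN7 libraries only, its adjusted p was 0.19 (limma) at the same change. The ktn1 values are 231 and 137 reads and the WT values 18 and 0 reads. It was the 1 tested entry with 10 RPM in both ktn1 libraries and in no WT library, so within EN7 it could only have entered the test through ktn1. It passed under 7 of 13 alternatives, and leaving out either ktn1 library ended the call (adjusted p = 0.18 without r1 and 0.15 without r2).

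**Figure D3:**
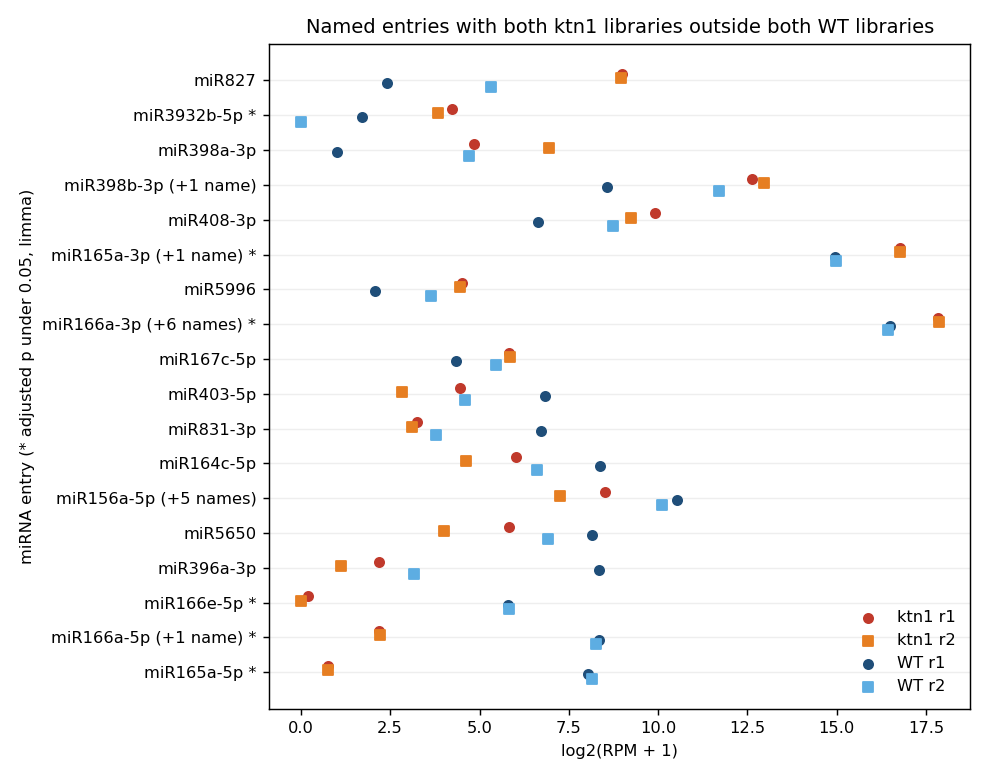
Points give log2(RPM + 1) in the 2 ktn1 libraries (red, orange) and the 2 WT libraries (dark and light blue), for the tested entries that passed or that had the largest changes among those whose genotypes did not overlap. For miR165/miR166 replicates lie close together. The distance between WT r1 and WT r2 exceeds the genotype gap for miR398a-3p, miR398b-3p, miR408-3p, miR5996, miR167c-5p, miR164c-5p, miR5650, miR396a-3p, miR831-3p and miR403-5p.

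Several miRNAs of copper supply had higher levels in both ktn1 libraries than in both WT libraries, but none passed the test. miR397, miR398, miR408 and miR857 are induced when copper is scarce and repress copper proteins such as superoxide dismutases, laccases and plantacyanin. The entry miR398b-3p, shared with miR398c-3p, held 6305 and 7945 RPM in ktn1, against 376 and 3316 RPM in WT (log2 change 2.66, SE 0.93, adjusted p = 0.18, limma). miR398a-3p held 27.6 and 122 RPM in ktn1, against 1.02 and 24.9 RPM in WT (log2 change 3.03, SE 1.25, adjusted p = 0.27). miR408-3p held 958 and 606 RPM in ktn1, against 98.2 and 425 RPM in WT (log2 change 1.89, SE 0.84, adjusted p = 0.29). All 3 were lowest in WT r1, and both ktn1 libraries lay above both WT libraries.

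The scarcer copper miRNAs had the same order. miR397a held 2.31 and 2.45 RPM in ktn1, against 0 and 1.58 RPM in WT. miR397b held 3.69 and 2.16 RPM in ktn1, against 0 and 0.288 RPM in WT. miR857 held 1.46 and 0.785 RPM in ktn1, against 0 and 0.432 RPM in WT. None of these scarcer entries was tested. Their WT values are 0 and 11 reads for miR397a, 0 and 2 for miR397b, and 0 and 3 for miR857. In WT, miR397b was thus under the floor of 3 reads and miR857 at or under it. In all, 6 of 9 listed copper entries had both ktn1 libraries above both WT libraries and none had them below, beside 10.6% above and 23.9% below over all 180 entries. With libraries scaled outside miR165/miR166, 6 lay above and 1, miR408-5p, below. The other 3 were miR408-5p, miR398a-5p and miR398b-5p, the opposite strands, of which miR408-5p held 58.8 and 40.9 RPM in ktn1, against 50.6 and 62.4 RPM in WT. Without WT r1 the log2 changes of miR398b-3p, miR398a-3p and miR408-3p were 1.09, 1.19 and 0.84, against 4.23, 4.88 and 2.94 without WT r2. None of the 3 passed without WT r1 and all 3 did without WT r2 (adjusted p = 0.0037, 0.015 and 0.039, limma). The size of this difference thus depended on which WT library was used.

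Among miRNAs of mineral supply, miR827 differed most. It represses NLA, a ubiquitin ligase that removes phosphate transporters. miR827 held 505 and 502 RPM in ktn1, against 4.33 and 38.8 RPM in WT, so that even the nearest libraries were 12.9-fold apart (log2 change 5.12, SE 1.51, adjusted p = 0.13, limma). The WT values are 34 and 269 reads. The change was 3.67 without WT r1 (adjusted p = 0.37) and 6.57 without WT r2 (adjusted p = 0.036). The other phosphate miRNA at a high level, miR399b with miR399c-3p, which represses PHO2, held 1099 and 1513 RPM in ktn1, against 683 and 3229 RPM in WT, and overlapped. miR395b, with miR395c and miR395f, which represses ATP sulfurylases, held 481 and 435 RPM in ktn1, against 632 and 623 RPM in WT, and did not pass. miR395a, with miR395d and miR395e, held 95.2 and 65.2 RPM in ktn1, against 89.6 and 70.2 RPM in WT. Of the 4 tested entries of phosphate, sulfate and nitrate miRNAs, miR827 was thus alone above both WT libraries.

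In the age group 3 of 6 tested entries lay below both WT libraries, beside 34.9% of all 86 tested entries. All 3 were miR156 entries, and none passed. miR156 and miR157 repress SPL genes and mark the juvenile phase, and miR172 represses AP2-like genes later. The main miR156 entry, shared by miR156a-5p to miR156f-5p, held 364 and 152 RPM in ktn1, against 1468 and 1093 RPM in WT (log2 change -2.42, SE 0.67, adjusted p = 0.11, limma). Both ktn1 values were far below both WT values. With equal sums of all listed entries, of which miR165/miR166 are a large part, the adjusted p was 0.031 (limma). It was 0.079 with equal sums outside miR165/miR166, 0.17 with equal medians of entries (log2 change -1.72) and 0.27 with the 4 EN7 libraries only. The change was -1.80 without ktn1 r2 and -3.05 without ktn1 r1. miR156b-3p held 149 and 114 RPM in ktn1, against 239 and 195 RPM in WT. miR156g held 2.46 and 1.18 RPM in ktn1, against 8.91 and 6.48 RPM in WT. It was under 10 RPM in all 4 EN7 libraries and needed the ACL5 libraries to be tested. miR157a-5p, shared with miR157b-5p and miR157c-5p, overlapped, with 39.1 and 11.3 RPM in ktn1 against 63.0 and 33.3 RPM in WT. miR172c with miR172d-3p also overlapped, with 98.4 and 18.1 RPM in ktn1 against 37.1 and 16.9 RPM in WT.

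Further entries below both WT libraries included miR161.1 and miR163. miR161.1 held 7967 and 3485 RPM in ktn1, against 30223 and 11389 RPM in WT (log2 change -1.82, SE 0.57, adjusted p = 0.13, limma). Its change was -1.11 without WT r1 and -2.52 without WT r2 (adjusted p = 0.42 and 0.016). miR163, which targets S-adenosylmethionine-dependent methyltransferase genes, held 1005 and 745 RPM in ktn1, against 1912 and 2286 RPM in WT, and did not pass either. For miR163 the lower WT library was r1, and for miR161.1 the higher. miR5650 held 55.3 and 15.1 RPM in ktn1, against 280 and 119 RPM in WT (log2 change -2.61, SE 0.80, adjusted p = 0.13, limma). miR164c-5p, of the family that represses NAC genes, held 64.1 and 23.8 RPM in ktn1, against 327 and 96.4 RPM in WT (log2 change -2.15, SE 0.79, adjusted p = 0.20). Its change was -1.28 without WT r1 and -3.03 without WT r2 (adjusted p = 0.70 and 0.046, limma). Its relative miR164a with miR164b-5p overlapped, with 488 and 140 RPM in ktn1 against 489 and 401 RPM in WT.

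Entries above both WT libraries outside these groups were few. miR5996 held 22.0 and 20.8 RPM in ktn1, against 3.18 and 11.5 RPM in WT (log2 change 1.63, SE 0.87, adjusted p = 0.37, limma). miR167c-5p held 55.6 and 57.2 RPM in ktn1, against 19.2 and 43.4 RPM in WT (log2 change 0.94, SE 0.65, adjusted p = 0.50). Without WT r1 the changes were 0.84 for miR5996 and 0.37 for miR167c-5p. The opposite strand miR167c-3p had the reverse order, with 527 and 440 RPM in ktn1 against 955 and 552 RPM in WT, and overlapped when scaled outside miR165/miR166.

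Seen by function, no list other than miR165/miR166 held an entry that passed. Among the lists, copper had the highest median log2 change, 2.28 over 4 tested entries, against -0.47 over all 86. Without WT r1 the copper median was 0.97, against -0.33 over all 84 then tested, and without WT r2 it was 3.59. The counts that follow stand beside 34.9% below and 11.6% above over all 86 tested entries. The age list had -1.36 over 6 tested entries, of which 3 lay below both WT libraries and none above; its median was -0.60 without WT r1. The silencing list (miR162; miR168, which targets AGO1 itself; and miR403, which targets AGO2) had -0.98 over 7, of which 4 lay below and none above; scaled outside miR165/miR166, 3 lay below, and without WT r1 the median was -0.49. PPR, NLR and TAS regulators had -0.58 over 3, with 2 below, and miR158 with miR163 -0.41 over 4, with 1 above and 1 below. Transcription factor regulators had -0.24 over 15, with 3 below and none above. Auxin miRNAs had -0.19 over 7, with 1 above and 1 below. Phosphate, sulfate and nitrate miRNAs had -0.11 over 4, with 1 above and 1 below. DCL4-dependent miRNAs had -0.020 over 4, and miR394, which represses LCR, had 0.31 in its 1 entry, and none of these lay outside WT. The 26 tested entries in no list had a median of -0.75, with 12 below and 2 above. At an unadjusted p under 0.05, 2 copper entries and miR827 were higher, and 2 age entries, miR161.1, miR163 and miR164c-5p were lower.

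**Figure D4:**
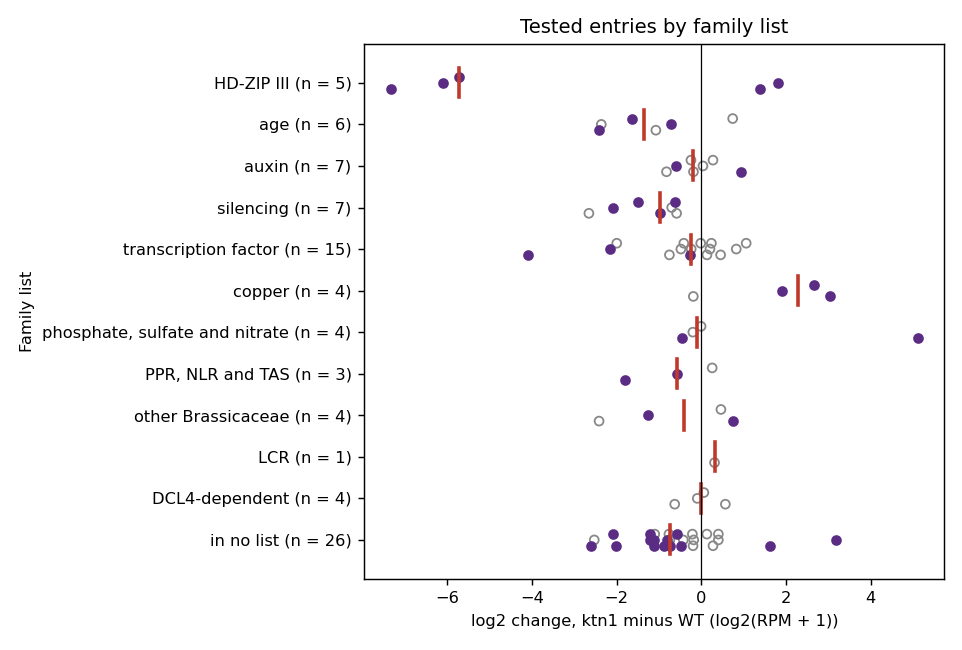
Each point is a tested entry, placed by its log2 change (ktn1 minus WT) in the row of its family list; filled points have both ktn1 libraries outside both WT libraries, open points overlap, and red bars are list medians. The copper list has its median at 2.28 (0.97 without WT r1), and the entries in no list theirs at -0.75.

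Regulators of MYB, SCARECROW-like and NLR genes and of TAS transcripts mostly overlapped. The miR858 family (MYB) held 612 and 509 RPM in ktn1, against 118 and 616 RPM in WT, and miR171 (SCARECROW-like) held 72.6 and 37.1 RPM in ktn1, against 82.2 and 65.8 RPM in WT. miR173, the trigger of TAS1 and TAS2 small RNAs, held 2230 and 881 RPM in ktn1, against 758 and 1823 RPM in WT. miR472 (NLR) held 192 and 152 RPM in ktn1, against 226 and 289 RPM in WT, with ktn1 below both WT libraries. Of the DCL4-dependent families, miR822 held 171 and 108 RPM in ktn1, against 118 and 160 RPM in WT, and miR869 held 256 and 74.2 RPM in ktn1, against 197 and 111 RPM in WT.

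Levels in the auxin and silencing lists show how far replicates set the outcome. miR160a-5p, with miR160b and miR160c-5p, which represses AUXIN RESPONSE FACTOR genes, held 945 and 600 RPM in ktn1, against 285 and 1363 RPM in WT. miR390a-5p, with miR390b-5p, the trigger of TAS3 small RNAs, held 178 and 27.1 RPM in ktn1, against 91.0 and 69.9 RPM in WT. miR168a-5p, with miR168b-5p, held 354 and 70.6 RPM in ktn1, against 337 and 199 RPM in WT. miR403-3p held 2775 and 863 RPM in ktn1, against 3965 and 1363 RPM in WT. In these the spread within a genotype was as large as any difference between genotypes. miR162a-3p, with miR162b-3p, held 5966 and 5112 RPM in ktn1, against 17982 and 6558 RPM in WT, with both ktn1 libraries lower but WT r2 much closer to them than to WT r1 (log2 change -0.98, adjusted p = 0.42, limma). Its change was -0.25 without WT r1, and its groups overlapped when scaled outside miR165/miR166.

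Opposite strands of other hairpins were compared with those of miR165/miR166. For 33 hairpin pairs with both strands listed and the more abundant one at 10 RPM or more, the less abundant strand was taken by its mean log2(RPM + 1) over the 4 libraries. The 3 from miR165/miR166 summed to 4.38 and 4.32 RPM in ktn1, against 639 and 648 RPM in WT. The other 30 summed to 726 and 571 RPM in ktn1, against 1514 and 943 RPM in WT. Of these 30, 11 lay below both WT libraries in ktn1 and 2 above. Over all 180 listed entries the shares were 23.9% below and 10.6% above, and over the tested ones 34.9% and 11.6%. WT r1 held the highest value for 16 of the 30. Of the 2 above, miR159b-5p held 0.154 and 0.294 RPM in ktn1 and 0 in WT, at or under the floor. The ratio of the less to the more abundant strand was below both WT ratios in ktn1 for 7 of the 30 pairs. It was above both for 5, while for miR165/miR166 it was below in 3 of 3. Some ratios of the 30 pairs rest on ktn1 values at or under the floor. Examples are miR156a-3p and miR159b-5p among those above and miR173-3p among those below.

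Some less abundant strands were high in WT r1 alone. Of the 9 entries more than 4-fold above all other libraries there, 6 were such strands. Their share among all 86 tested entries was not counted, so the 6 are not read as an excess of such strands. Outside miR165/miR166, WT r1 held the highest value for 16 of 30 less abundant strands and for 10 of 24 more abundant ones. miR396a-3p held 3.54 and 1.18 RPM in ktn1, against 322 and 7.92 RPM in WT (log2 change -4.09, SE 2.00, adjusted p = 0.34, limma), and -1.51 without WT r1. miR157a-3p, with miR157b-3p, held 9.54 and 2.45 RPM in ktn1, against 152 and 5.33 RPM in WT. miR403-5p held 20.9 and 6.08 RPM in ktn1, against 113 and 23.2 RPM in WT (log2 change -2.08, adjusted p = 0.27), and miR158a-5p held 0.154 and 0 RPM in ktn1, against 31.9 and 0 RPM in WT. miR831-3p, whose opposite strand is not listed, held 8.54 and 7.56 RPM in ktn1, against 105 and 12.7 RPM in WT (log2 change -2.08, adjusted p = 0.37). The part of WT r1 in these differences is seen in the values: against WT r2 alone the changes were -0.96 for miR403-5p and -0.60 for miR831-3p. The passengers of miR165/miR166, with changes of -7.40, -6.07 and -5.73 for miR165a-5p, miR166a-5p and miR166e-5p without WT r1, did not share this dependence.

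**Figure D5:**
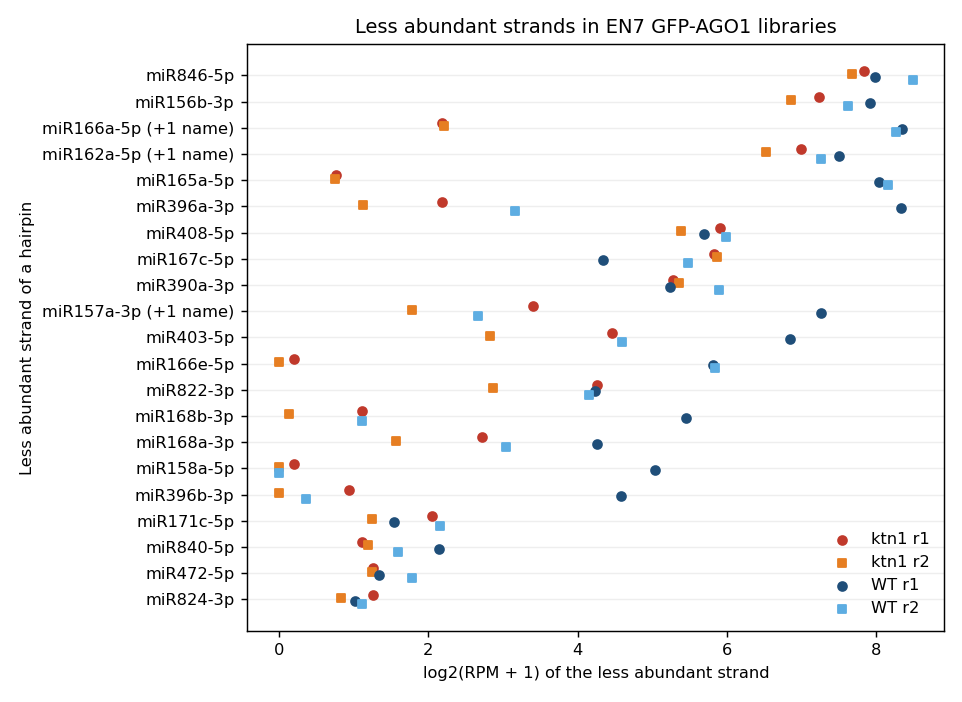
Points give log2(RPM + 1) of the less abundant strand of each hairpin with a mean of at least 1 RPM, in the 2 ktn1 libraries (red, orange) and 2 WT libraries (blue). The rows of miR166a-5p, miR165a-5p and miR166e-5p have both WT libraries together and far right of both ktn1 libraries; in the rows of miR396a-3p, miR157a-3p, miR168b-3p, miR158a-5p and miR396b-3p WT r1 alone lies far to the right.

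The endodermal changes were set against those of the ACL5 line, in which the fusion is driven by the ACL5 promoter, active in developing xylem, with 2 ktn1 and 2 WT libraries of its own. The ktn1 change in EN7 minus that in ACL5 passed for 2 of 86 entries (2.33%, limma interaction), which were the guides of miR165 and miR166, and for 1 of 55 families (1.82%), miR165/miR166. The fitted changes of the passengers were negative in both lines. miR165a-5p had a log2 change of -7.34 in EN7 and -2.89 in ACL5, miR166a-5p one of -6.11 in EN7 and -2.61 in ACL5, and miR166e-5p one of -5.72 in EN7 and -3.94 in ACL5. These differences between lines did not pass (adjusted p = 0.26, 0.26 and 0.74). For miR827 the changes were 5.12 in EN7 and 0.82 in ACL5, a difference of 4.30 (SE 2.14, adjusted p = 0.66). miR398b-3p differed by -0.25 between lines, with changes of 2.66 in EN7 and 2.91 in ACL5. miR3932b-5p differed by -1.37 (adjusted p = 0.97, limma interaction), and its family miR3932 had changes of 3.18 in EN7 and 4.56 in ACL5. The fitted changes were thus positive in both lines, and neither miRNA was shown to be particular to the endodermis.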

How the data were processed

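Small RNA bound by GFP-AGO1 was measured in the 8 immunoprecipitated libraries, of which the 4 EN7 libraries are described and the 4 ACL5 libraries share the fit; total small RNA libraries of seedlings were not used. The authors deposited RPM values per mature miRNA in 1 table per library, and the submitters' processing notes name cutadapt, Bowtie and the TAIR10 build without versions or settings. Denominators and read numbers were inferred from the lowest value of each library (tolerance 0.01) and were not used for testing; they cover counting error only. Entries were grouped by title and summed to families by miRNA number. The deposited RPM values were put on a log2 scale with a pseudocount of 1 RPM, and entries or families with at least 10 RPM in 2 or more libraries were fitted with limma 3.58.1 in R 4.3.3 (1 mean per line and genotype, trended empirical Bayes, two-sided, Benjamini-Hochberg adjustment, threshold 0.05). Folds on this scale understate changes of low entries. A second fit scaled each library to an equal sum outside miR165/miR166. Shares were compared by exact two-sided permutation (SciPy 1.17.1). The fit was tested on simulated data in which all entries and libraries shared the same spread. That test therefore does not cover a library that stands apart, as WT r1 does here. Named entries are those passing the threshold, all miR165/miR166 entries, the 12 leading families with their leading entries, the 6 higher and 6 lower entries with the largest change among those not overlapping, and listed families; medians of lists without a WT library were added after seeing the data; names outside this rule were chosen after their values were seen. Members and lists were chosen with earlier results of these data known. The replicate numbers of the titles were not shown to pair libraries. No genome was used, and no sequences or coordinates are given.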

Additional observations from a re-analysis of the deposited data

Results flagged for a closer look

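The ktn1 change of the miR165/miR166 guide strands differed between the EN7 and ACL5 lines by a test of the difference itself (limma interaction). For the miR165 guide (miR165a-3p;miR165b) the log2 change was 1.81 in EN7 and -1.53 in ACL5, a difference of 3.34 (SE 0.30, adjusted p = 0.00053). For the miR166 guide (miR166a-3p and the names sharing its sequence) it was 1.38 in EN7 and -1.62 in ACL5, a difference of 3.0 (SE 0.22, adjusted p = 0.00023). For the miR165/miR166 family it was 1.49 in EN7 and -1.62 in ACL5, a difference of 3.11 (SE 0.26, adjusted p = 3.6e-05). The EN7 libraries did not overlap between genotypes for any of the 3.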

How the results depend on the processing

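The count of 6 entries ranged from 5 to 8 under the other pseudocounts, filters, scalings and replicate block, and from 5 to 19 when 1 library was left out, with 19 without WT r2. With equal sums of all listed entries, 7 entries passed, all lower in ktn1 and 3 of them among the 6. The 2 families became 1 with a pseudocount of 0.5 or no filter, 0 (9 unadjusted) without the mean-variance trend, 0 (19 unadjusted) with equal sums, 5 with the replicate block, and 1 to 12 with 1 library left out. Scaled outside miR165/miR166, the 6 entries became 3 without the trend, 11 with the replicate block and 3 to 27 with 1 library left out. The 1 family became 2 with a pseudocount of 5, 0 (9 unadjusted) without the filter, 0 (10 unadjusted) without the trend, 0 (6 unadjusted) with the 4 EN7 libraries only, 4 with the replicate block and 0 to 17 with 1 library left out. The 2 differences from ACL5 became 0 without the trend (8 unadjusted; adjusted p = 0.050 for both guides). The miR165/miR166 family change of 1.49 had an adjusted p of 0.15 without the trend (1.49) and was 0.75 with equal sums (adjusted p = 0.083); it was 1.47 to 2.21 otherwise. The log2 ratio of the summed share, 0.73, was 0.60 to 0.88 with 1 library left out and 0.74 under the pairing. Outside miR165/miR166 it was -0.20 without ktn1 r1 and -0.19 without WT r1 (range -0.20 to 0.26), and 0.020 under the pairing. Of 62 non-overlapping entries, 13 kept a gap of 2-fold and 40 were tested; with equal sums 13 lay above and 73 below. Among named entries, 277 recomputed values kept their side of the threshold and direction, 14 passed in addition and 11 no longer passed. The values of the miR165/miR166 family are not among these. With the replicate block the main miR156 entry and miR161.1 were among those that passed in addition (adjusted p = 0.041 and 0.034, limma). The cause was not tested. Same-numbered libraries deviated together with a correlation of 0.42 over 86 entries, from 2 pairs only. Tests on recovered read counts were planned and not run. With 2 libraries per genotype, no permutation test can go below 0.333, and values under 3 reads are not distinguishable from 0.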

Other observations

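Among entries named in none of the groups above, miR5654-3p held 14.5 and 1.77 RPM in ktn1, against 191 and 6.48 RPM in WT, and miR3434-5p held 0.0769 and 0 RPM in ktn1, against 14.5 and 0.144 RPM in WT; in both, WT r1 stood more than 4-fold above the other libraries. miR846-5p, the less abundant strand of its hairpin, held 228 and 203 RPM in ktn1, against 252 and 357 RPM in WT.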
